A study of Mus musculus with 64 samples.

Results

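The genes examined here are the 3 colony-stimulating factors (CSFs), Csf1, Csf2 and Csf3, and 3 genes for the chains that bind them, Csf1r, Csf2ra and Csf3r. They are 6 of 18820 genes measured on 64 microarrays of mouse bone marrow macrophages. The members were chosen by symbol, as the probe sets that carry that symbol alone, with the brightest kept where a gene has several. Each of the 6 had a single such probe set. The choice used no measured change, although it was made with earlier results of these data known.

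CSFs are secreted proteins that drive the growth, survival and differentiation of myeloid cells. Csf1 encodes macrophage colony-stimulating factor (CSF1, M-CSF), which keeps macrophages alive and is required to grow them from bone marrow. Its receptor, the tyrosine kinase encoded by Csf1r, also binds interleukin 34 and is a defining gene of the macrophage lineage. Csf2 encodes granulocyte-macrophage CSF (GM-CSF), whose receptor pairs the specific alpha chain of Csf2ra with a beta chain shared with the interleukin 3 and interleukin 5 receptors, and signals through Jak2 and Stat5. Csf3 encodes granulocyte CSF (G-CSF), which promotes the output of neutrophils, and Csf3r encodes its receptor. Macrophages exposed to bacterial lipopolysaccharide (LPS), the ligand of Toll-like receptor 4, are a known source of all 3 factors.

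The cells were grown from marrow of male mice aged 7 to 8 weeks, of the strain BALB/c or C57BL/6. On day 6 they were plated at 200000 cells a well in medium with CSF1 protein at 10000 U/ml, and on day 7 they were treated. Recombinant ligand of Csf1r was thus present in every group, the untreated ones included, and the arrays measured transcripts, not the protein added or secreted. BALB/c cells received interferon beta (IFN-beta) at 10 U/ml, interferon gamma (IFN-gamma) at 10 U/ml or LPS at 5 ng/ml. For C57BL/6 the agent was LPS alone, in doses of 50, 5 and 0.5 ng/ml. Both strains were sampled untreated at 0 h, and each of the 6 courses at 1, 2, 4, 8 and 24 h, which makes 32 groups of 2 arrays. No untreated wells were sampled at the later times, so a change from 0 h holds the effect of time in culture as well as that of the agent.

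The 2 arrays of a group came from separate wells, and the labels do not tie them to separate mice. P-values therefore measure the spread between wells, and strain cannot be told apart from cell preparation. In such bulk RNA, fewer cells of a type and less RNA per cell cannot be told apart. Values are log2 of the deposited intensity. A gene was called in a course when limma's F-test of its 5 differences had a Benjamini-Hochberg adjusted p under 0.05 over all 18820 genes and the log2 change was at least 1 at 1 or more times. The spread was pooled over all 64 arrays, and intervals below cover 95%. Marker lists of 7 cell types were read as a check on the cells. All 9 macrophage markers measured lay above the dim level, the 40th percentile of all values at 4.19, in every group, and their summed level ran only from 15.15 to 15.52. The lymphoid sum ran from 9.96 to 11.94, with Il7r alone above the dim level in all groups. The mast cell or basophil sum ran from 6.51 to 8.02, with Kit alone above it. Dendritic and erythroid sums ran from 6.60 to 7.14 and from 5.51 to 5.95. Granulocyte and stromal lists are given below. Array medians ran from 25.6 to 29 on the linear scale. By probe sets without a gene, 53 arrays formed a larger batch and 11 a smaller one, which split 9 groups and took in the whole IFN-beta group of 4 h. The main fit had no batch term, so the pooled spread between wells also holds batch differences within those 9 groups.

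The untreated C57BL/6 arrays held Nos2 at a level of treated cells. Nos2, the inducible nitric oxide synthase and a standard LPS-induced gene, stood at 10.45 and 10.63 in them, against 3.54 and 3.78 in untreated BALB/c. It was at 4.41 and 4.56 after 1 h of LPS at 5 ng/ml in C57BL/6, and it split the pairs of arrays at 1 h of LPS at 50 ng/ml, with 5.34 and 10.17, and at 0.5 ng/ml, with 3.98 and 8.12. Whether these arrays carry the labels of other wells was not tested. Other genes were mixed in untreated C57BL/6. Cd14 was at 10.52 there, against 12.09 at 24 h of 50 ng/ml, and Csf3r at 7.62 against 9.47. Csf1 was above its level in untreated BALB/c, at 8.47 against 7.48. The labels were kept, and if they were exchanged, every C57BL/6 difference from 0 h would have another meaning. For the members and for the counts of the gene lists, changes in C57BL/6 are therefore given from 1 h as well as from 0 h. Leaving out the 5 arrays that stood apart from their replicate changed no count of called members in any of the 15 comparisons. The untreated C57BL/6 arrays, close to each other in Nos2, were not among these 5, so this check could not show an exchange of their labels. Changes from 1 h are not among the 15 comparisons.

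RefSeq promoter windows were on hand for 4 of the 6 genes, not for Csf3 or Csf1r. The 3 printed here belong to the members that rose under LPS in both strains and had an entry. Sequence around a start site of each thus stands beside its response. Each window holds 250 bases before and 50 after the start on the gene's strand, in build GRCm38.p6. Csf1 is at chr3:107760420-107760719 on the minus strand, Csf2 at chr11:54249850-54250149 on the minus strand and Csf3r at chr4:126024409-126024708 on the plus strand. The Csf3r window lies inside the RefSeq span of the gene, which begins at base 126023441, so its start site is an internal one. Capitals mark matches, on either strand, to an NF-kB pattern (GGGA, then any 4 bases, then CC), and in Csf3r also to GAGGAA, the core of ETS and PU.1 sites.
Csf1: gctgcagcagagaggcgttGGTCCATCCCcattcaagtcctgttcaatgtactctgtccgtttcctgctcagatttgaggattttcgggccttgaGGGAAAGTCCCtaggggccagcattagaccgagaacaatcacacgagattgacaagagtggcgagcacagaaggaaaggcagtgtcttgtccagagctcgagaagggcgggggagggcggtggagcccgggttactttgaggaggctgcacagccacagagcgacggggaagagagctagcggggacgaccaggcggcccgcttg
Csf2: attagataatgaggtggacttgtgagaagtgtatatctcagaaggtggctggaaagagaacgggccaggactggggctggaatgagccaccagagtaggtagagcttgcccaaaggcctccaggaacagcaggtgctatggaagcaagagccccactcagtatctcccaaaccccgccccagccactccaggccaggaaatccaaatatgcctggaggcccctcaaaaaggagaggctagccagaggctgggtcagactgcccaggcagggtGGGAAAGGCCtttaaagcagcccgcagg
Csf3r: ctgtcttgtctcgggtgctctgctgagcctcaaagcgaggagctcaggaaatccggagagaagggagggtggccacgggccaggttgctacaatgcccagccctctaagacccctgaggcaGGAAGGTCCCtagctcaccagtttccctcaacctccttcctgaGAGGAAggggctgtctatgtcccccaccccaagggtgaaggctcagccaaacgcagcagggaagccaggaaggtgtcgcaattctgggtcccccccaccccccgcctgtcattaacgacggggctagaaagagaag

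The Csf1 window held 3 matches to the NF-kB pattern, of which 2 overlapped as the run GGGAAAGTCCC starting 155 bases before the start site, and the third began 231 bases before it. In Csf2 the single match, GGGAAAGGCC, began 23 bases after the start. In Csf3r the match GGAAGGTCCC began 129 bases before the internal start, on the opposite strand. The pattern occurred in 20.7% of 32851 promoter windows of this length, and GAGGAA in 28.3%. Csf2ra, whose levels hardly moved, held no NF-kB match and 2 of GAGGAA. None of the 4 windows held TGANTCA (AP-1, in 7.81% of windows), TTCNNNGAA (GAS, in 8.3%), GAGATTC (the CK-1 core, in 3.09%) or the ISRE pattern (GAAA, any 2 bases, GAAA, in 3.44%). Distal enhancers and upstream elements lie outside these windows, and a match or its absence is a description of letters alone.

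Csf1 was the most responsive member: it rose in all 6 courses. In untreated BALB/c cells its 2 arrays read 7.57 and 7.38 on the log2 scale. LPS at 5 ng/ml took it to 10.14 and 10.09 at 1 h, 10.91 and 10.85 at 2 h, 11.32 and 11.07 at 4 h and 11.26 and 11.30 at 8 h, and it was still at 10.71 and 10.50 at 24 h. Every treated array lay above both untreated ones from the first hour on. The rise was 2.64 ± 0.16 (SE, n = 2 a group) on the log2 scale at 1 h, a fold of 6.23, and reached 3.80 ± 0.16 at 8 h, a fold of 14, with an adjusted p of 5.3e-22 for the course in limma's F-test.

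Both interferons also raised Csf1, by less and with an earlier decline. Under IFN-beta the arrays read 8.33 and 8.90 at 1 h, 9.13 and 9.22 at 2 h, 9.76 and 9.96 at 4 h, 9.24 and 8.97 at 8 h and 8.21 and 7.76 at 24 h. The peak at 4 h was 2.39 ± 0.16 above 0 h on the log2 scale (fold 5.23, adjusted p of the course 1.11e-14), and by 24 h the difference had shrunk to 0.51 ± 0.16 (adjusted p 0.0309 at that time). Both 4 h arrays belong to the smaller batch, and with batch as a covariate the peak was 2.58. The rises of 1.70 at 2 h and 1.63 at 8 h rest on arrays of the larger batch alone. Under IFN-gamma the peak at 4 h, with arrays at 8.97 and 9.19, was 1.61 ± 0.16 above 0 h (fold 3.04, adjusted p of the course 9.13e-09), and 24 h arrays at 8.07 and 8.20 stayed above the untreated pair. In the larger batch, which holds only the second of these 2 arrays at 4 h, that peak was 1.72. Without that array it was 1.49.

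In C57BL/6 the untreated level of Csf1 was higher, at 8.46 and 8.48, and the first hour brought no rise. At 1 h the arrays read 8.19 and 8.21 at 50 ng/ml, 8.42 and 7.80 at 5 ng/ml and 7.44 and 7.39 at 0.5 ng/ml. The fall from 0 h at 0.5 ng/ml was -1.05 ± 0.16 on the log2 scale (adjusted p 5.96e-05), with no overlap of arrays. From 2 h on all 3 doses raised Csf1, and at 8 h the pairs stood at 10.82 and 10.91, 11.12 and 11.30, and 10.70 and 10.69 in order of falling dose. From 0 h the rises at 8 h were 2.40, 2.74 and 2.22, each with an SE of 0.16. From 1 h they were 2.67, 3.10 and 3.28. At 24 h Csf1 had come down from its 8 h level at every dose, to group means of 9.68, 9.97 and 9.49.

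**Figure D1:**
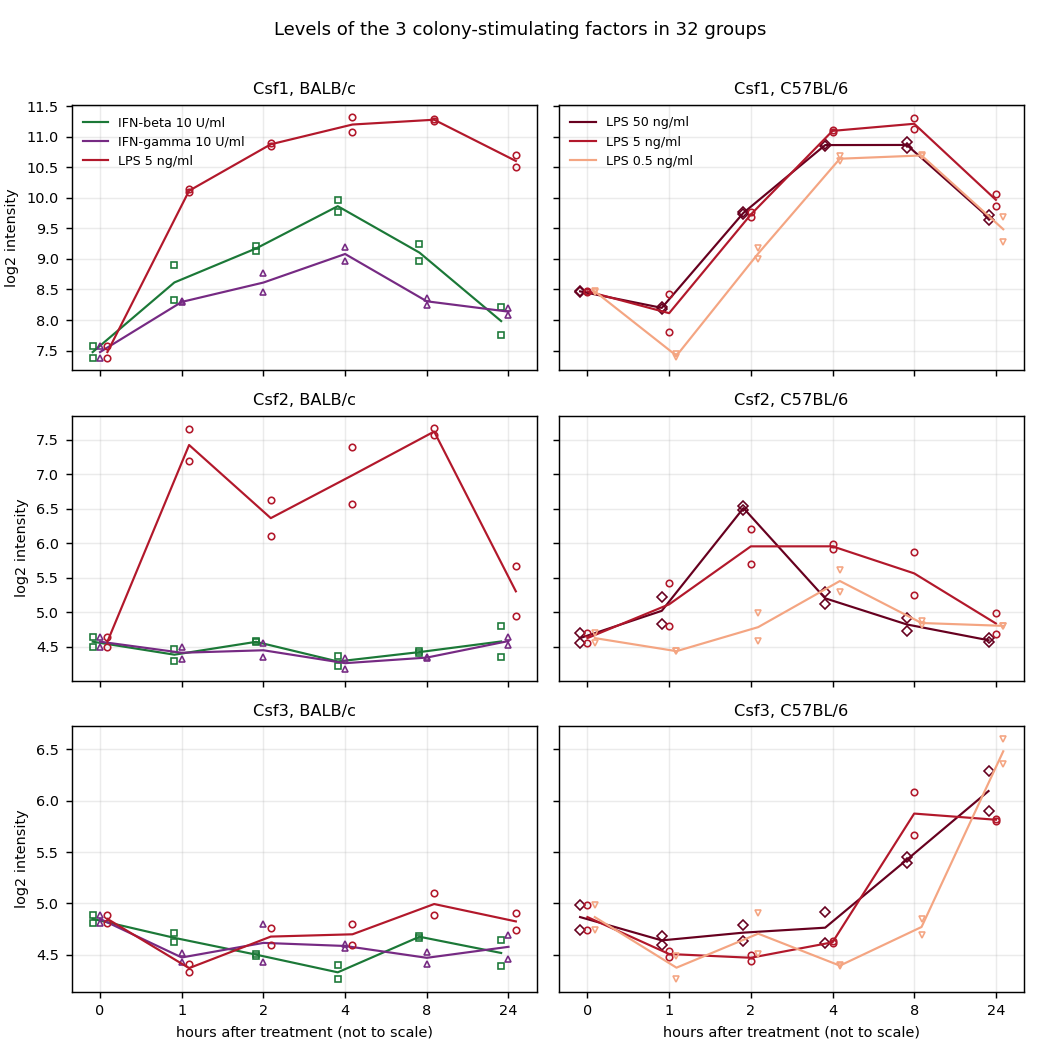
Log2 intensity of Csf1, Csf2 and Csf3 against hours after treatment (evenly spaced, not to scale), BALB/c on the left and C57BL/6 on the right. Open symbols are single arrays, 2 a group, and lines join group means. Csf1 rises in every course, Csf2 only where LPS was given and to 7.62 in BALB/c against 4.58 untreated, and Csf3 rises late and in C57BL/6 alone by 1 log2 or more.

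Csf2 rose under LPS and not under either interferon. In BALB/c its untreated arrays read 4.51 and 4.65, near the dim level. LPS at 5 ng/ml raised it to 7.65 and 7.19 at 1 h, 6.10 and 6.63 at 2 h, 7.39 and 6.57 at 4 h and 7.56 and 7.67 at 8 h, with 4.94 and 5.67 left at 24 h. The rises were 2.84 ± 0.23 at 1 h and 3.04 ± 0.23 at 8 h on the log2 scale, folds of 7.18 and 8.22 (adjusted p of the course 5.11e-15). The level at 2 h was below that at 1 h by 1.06 ± 0.23 (adjusted p 0.0161), and the arrays of these times did not overlap, so the course had an early and a late high. In the 10 interferon groups the means ran from 4.27 to 4.59, and the largest change was -0.31 ± 0.23 under IFN-gamma and -0.29 ± 0.23 under IFN-beta, with intervals of -0.78 to 0.16 and -0.76 to 0.18. Neither course passed the test, with adjusted p values of 0.814 and 0.83.

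In C57BL/6 the rise of Csf2 was smaller and its timing differed by dose. From untreated arrays at 4.70 and 4.55 it reached 6.54 and 6.48 at 2 h of 50 ng/ml, a rise of 1.88 ± 0.23 (fold 3.68), and was back at 5.12 and 5.29 by 4 h. At 5 ng/ml it stood at 6.21 and 5.70 at 2 h and 5.99 and 5.92 at 4 h, a rise of 1.33 ± 0.23 at both times. At 0.5 ng/ml its highest pair was 5.29 and 5.62 at 4 h, 0.83 ± 0.23 above 0 h, which fell short of the minimum change. From 1 h in place of 0 h the call at 5 ng/ml was lost, at 0.84, and that at 0.5 ng/ml was gained, at 1.01.

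Csf3 behaved otherwise: it did not rise within 4 h in any course. In BALB/c it stayed between 4.26 and 5.10 in every array, untreated ones at 4.88 and 4.81 included, and LPS at 8 h, with 5.10 and 4.89, was 0.14 ± 0.14 above 0 h. The LPS course passed the adjusted p (0.00663) through a lower level at 1 h, -0.48 ± 0.14 from 0 h, and from 1 h Csf3 rose by 0.62 ± 0.14 at 8 h (adjusted p 0.000451), under the minimum change. In C57BL/6 it rose from 4.74 and 4.99 to 6.61 and 6.36 at 24 h of 0.5 ng/ml, a difference of 1.62 ± 0.14 (fold 3.06, adjusted p 5.43e-12 at that time). At 24 h of 50 ng/ml the arrays read 5.90 and 6.29, a rise of 1.23 ± 0.14. With 5 ng/ml the pair reached 6.08 and 5.67 at 8 h and 5.82 and 5.80 at 24 h, rises of 1.01 and 0.95 with an SE of 0.14. This last call sits at the minimum change, and it was lost without the first replicate of 8 h (0.80), without the first replicate of 0 h (0.89) or with arrays centred on their medians (0.997).

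Among the receptors, Csf1r and Csf2ra were near the top of the intensity range and moved little, whereas Csf3r rose late. Mean intensities of Csf1r and Csf2ra exceeded those of 99.2% and 99% of genes, although probe sets of different genes differ in brightness for equal amounts of RNA. The group means of Csf1r spanned 1.01 on the log2 scale, more than those of 62.2% of genes, and those of Csf2ra 0.44, more than those of 4.3%. Csf3r spanned 2.42.

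Csf1r dipped at 8 h of LPS in BALB/c and at 50 ng/ml in C57BL/6, and was raised at 24 h of LPS in C57BL/6. In BALB/c it read 12.00 and 12.04 untreated, 11.77 and 11.85 at 4 h of LPS, 11.56 and 11.60 at 8 h and 12.07 and 12.12 at 24 h. The dip at 8 h, -0.44 ± 0.07 on the log2 scale, had an adjusted p of 6.99e-07 at that time, and its arrays lay below all other 62. In C57BL/6 at 50 ng/ml it went from 12.17 and 12.24 to 11.95 in both arrays at 8 h (-0.26 ± 0.07, adjusted p 0.00194) and to 12.54 and 12.49 at 24 h (0.31 ± 0.07, adjusted p 0.000258). At 0.5 ng/ml there was no dip at 8 h, with 12.35 and 12.31, and the 24 h arrays at 12.60 and 12.58 were the highest of the series. The largest change under an interferon was 0.22 ± 0.07, at 24 h of IFN-beta (adjusted p 0.0266). At 5 ng/ml in C57BL/6 the 8 h difference was -0.12 ± 0.07 (adjusted p 0.183) and that at 24 h 0.25 ± 0.07 (adjusted p 0.00263). From 1 h the 8 h difference at 50 ng/ml was -0.31 (adjusted p 0.000186), and those at 24 h were 0.25, 0.22 and 0.41 in order of falling dose, with adjusted p values of 0.00255, 0.00817 and 4.29e-06. Each of these differences is under 1 log2, and Csf1r was called in none of the 15 comparisons.

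Csf2ra, the specific chain of the GM-CSF receptor, was the steadiest member. Its arrays ran from 11.78, at 8 h of 50 ng/ml in C57BL/6, to 12.28, at 24 h of 0.5 ng/ml. The largest change from 0 h in a course was -0.27 ± 0.10 under IFN-gamma, and no course from 0 h passed the test. From 1 h, that at 50 ng/ml did (adjusted p 0.032), with -0.31 ± 0.10 at 8 h. Under LPS at 5 ng/ml in BALB/c, where Csf2 itself rose most, Csf2ra was at 11.94 and 12.03 at 8 h against 12.17 and 12.11 untreated, a difference of -0.15 with an interval of -0.35 to 0.04.

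Csf3r, the G-CSF receptor, rose at 8 h in all 4 LPS courses. In BALB/c it was at 7.95 and 7.82 untreated and at 8.20 and 7.99 after 4 h of LPS, then at 9.73 and 9.75 at 8 h and 9.12 and 9.28 at 24 h. The rise at 8 h was 1.86 ± 0.13 on the log2 scale (fold 3.62, adjusted p of the course 2.48e-17). In C57BL/6 from 7.68 and 7.57 it reached 9.01 and 9.24 at 8 h and 9.52 and 9.42 at 24 h of 50 ng/ml. At 5 ng/ml it read 9.10 and 9.15 at 8 h and 9.19 and 9.03 at 24 h, and at 0.5 ng/ml 8.37 and 8.25, then 8.74 and 8.78. The rises at 24 h were 1.84, 1.49 and 1.14 from 0 h in order of falling dose, and 1.70, 1.77 and 1.37 from 1 h, each ± 0.13. At 4 h no course with LPS had moved it by more than 0.21 from 0 h. From 1 h the largest such difference was -0.33, at 50 ng/ml. Under IFN-beta it was 0.86 ± 0.13 above 0 h at 8 h (adjusted p 3.31e-06), with arrays at 8.58 and 8.91, and under IFN-gamma 0.67 ± 0.13 above at 24 h, with 8.58 and 8.52. Both fell short of the minimum change, and the former passed it, at 1.03, without the first replicate of 8 h.

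**Figure D2:**
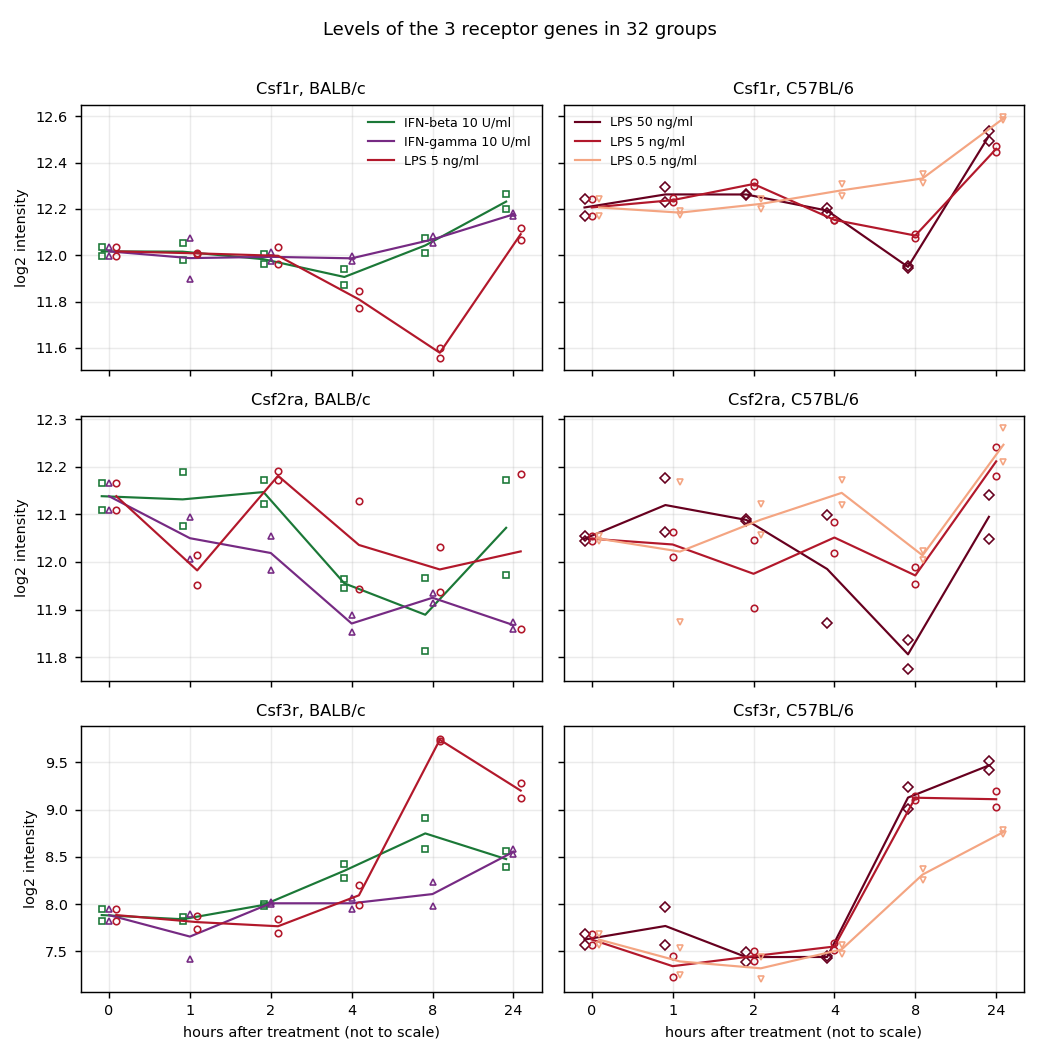
Log2 intensity of Csf1r, Csf2ra and Csf3r against hours after treatment (evenly spaced, not to scale), BALB/c on the left and C57BL/6 on the right, with a y axis of its own for each gene. Open symbols are single arrays, 2 a group, and lines join group means. Csf1r dips at 8 h of LPS at 50 ng/ml and, in BALB/c, at 5 ng/ml, Csf2ra spans 0.44, and Csf3r rises between 4 h and 8 h of LPS in both strains.

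Csf3r is a granulocyte gene as well, so the granulocyte markers were set beside it. Their summed level, as log2 of summed intensity over 9 genes, is given for the groups in which Csf3r rose. In BALB/c it was 8.77 untreated, 8.41 at 8 h and 7.88 at 24 h of LPS. In C57BL/6 it was 9.57 untreated, 9.25 at 8 h and 8.69 at 24 h of 50 ng/ml, and 9.46 at 24 h of 0.5 ng/ml. Mmp8, a neutrophil collagenase, was the brightest of the 9, at 8.05 in untreated BALB/c, and had group means from 5.77 to 9.20. Among granule genes, Retnlg was under the dim level in all groups, and Ngp and Mpo were at 4.12 and 4.20 at 24 h of 50 ng/ml against 6.18 and 5.13 in untreated C57BL/6. Camp, another granule gene, was higher there, at 4.82 against 4.27, and in BALB/c it was at 4.27 at 8 h of LPS against 4.05 untreated. In the same BALB/c groups Elane, Ltf and Retnlg were also higher, at 4.58, 4.10 and 3.32 against 4.49, 4.04 and 3.12. Mmp8 was lower there, at 7.52 against 8.05, as were Ngp, Mpo, S100a8 and S100a9. Elane, S100a8 and Mmp8 were above the dim level in all groups. The sum, to which bright genes such as Mmp8 add most, was below its untreated level in each of the 8 LPS groups at 8 h and 24 h. Csf3r was higher than untreated in these groups. The part of granulocytes in the level of Csf3r was not tested.

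**Figure D3:**
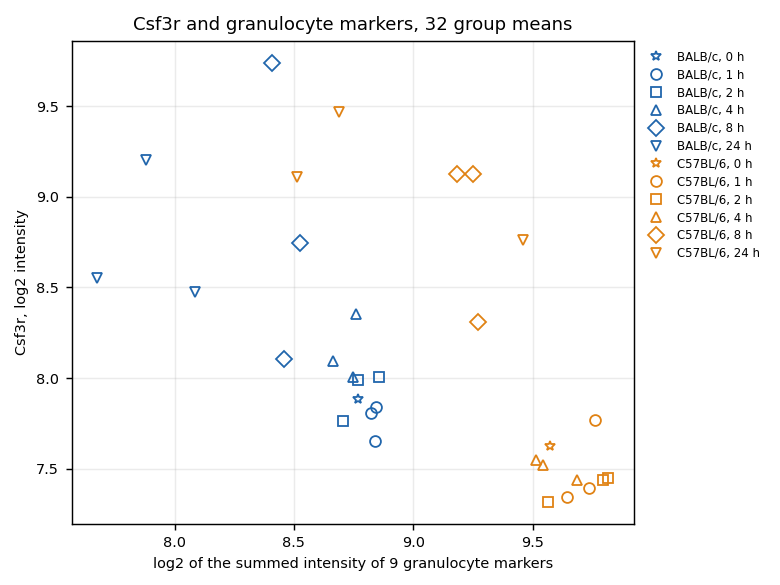
Group means of Csf3r, in log2 intensity, against the log2 of the summed intensity of 9 granulocyte markers, for 32 groups, coloured by strain with a symbol for each time of sampling. BALB/c at 8 h of LPS has the highest Csf3r, 9.74, at a marker sum of 8.41, and C57BL/6 groups at 1, 2 and 4 h have sums from 9.51 to 9.82 and Csf3r at 7.77 or below.

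Stromal cells are another source of CSFs, and a stromal list moved with LPS. Its summed level was 7.55 in untreated BALB/c, 7.47 at 1 h and 7.58 at 2 h of LPS, 8.87 at 4 h and 9.55 at 8 h, and the rise lay in Pdgfrb (5.92 to 9.17 at 8 h) and Dcn (3.63 to 6.07). The collagen genes Col1a1, Col1a2 and Col3a1 stayed between 4.42 and 5.47 in all groups, and Lum and Pdgfra were under the dim level in all. Under interferons, where Csf1 rose, it ran from 7.28 to 7.60. In C57BL/6 it was 7.29 untreated and reached 8.73 at 8 h of 5 ng/ml, and Dcn had group means up to 7.75. The part of stromal cells in the levels of the CSFs was not tested.

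Set beside the whole array, the counts of called members were as follows. With IFN-beta 1 of 6 members was called from 0 h, Csf1, against 7.92% of all genes in either direction and 4.05% higher, and with IFN-gamma 1 of 6, again Csf1, against 5.37% and 3.1% higher. With LPS in BALB/c 3 of 6 were called, all higher (Csf1, Csf2 and Csf3r), against 17.2% of genes in either direction and 7.44% higher. In C57BL/6 4 of 6 were called higher at 50 ng/ml and at 5 ng/ml (Csf1, Csf2, Csf3 and Csf3r), against 15% and 14.3% of genes, of which 6.26% and 5.88% were higher. At 0.5 ng/ml 3 of 6 were called higher, without Csf2, against 9.11% and 4.02% higher. No member was called lower in any course from 0 h. These courses share untreated arrays within a strain.

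Measured from 1 h, 1 of 6 was called for IFN-beta, Csf1, against 6.49% of genes (3.01% higher), and 0 of 6 for IFN-gamma, against 4.54%. LPS in BALB/c had 3 of 6 called, against 15% of genes, with 2 higher (6.03% of genes) and 1 lower (8.97%). In C57BL/6 4, 3 and 4 of 6 were called higher at the falling doses, against 14.6%, 14.9% and 10.4% of genes, of which 5.95%, 6.29% and 4.35% were higher. The lower member in BALB/c was Csf2, which at 24 h was 2.12 ± 0.23 below its level at 1 h on the log2 scale. Csf3 was called at all 3 doses from 1 h, with 2.11 ± 0.14 at 24 h of 0.5 ng/ml. The IFN-gamma count of 0 in limma, with 3 of 6 at an unadjusted p under 0.05, has Csf1 at 0.78 ± 0.16 at 4 h, past the adjusted p (6.32e-05 for the course) and under the minimum change. No share of all genes by unadjusted p is given here or below, so member counts by it are not set against the whole array.

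The other chains and ligands of these receptors were read from a list of 7 genes. Csf2rb, the shared beta chain, was called higher under IFN-gamma and under LPS in BALB/c. Its arrays were at 10.44 and 10.45 untreated, 11.49 and 11.52 at 4 h of IFN-gamma (1.06 ± 0.08 on the log2 scale) and 11.61 and 11.63 at 24 h of LPS (1.18 ± 0.08). In C57BL/6 it rose from a higher untreated level, 10.78 and 10.86, by 0.67, 0.70 and 0.73 at 24 h of the falling doses from 0 h, and by 0.69, 0.83 and 0.99 from 1 h, each past the adjusted p and under the minimum change. Csf2rb2, the neighbouring gene for a beta chain of the interleukin 3 receptor, is a close copy, so the probe sets of both may share signal. Its differences from 0 h were 0.80 at 4 h of IFN-gamma and 0.75 at 24 h of LPS in BALB/c. Il34, the second ligand of Csf1r, read 3.16 and 3.42 untreated in BALB/c, under the dim level, and its largest change was 0.77 ± 0.18 at 8 h of LPS, to 3.82 and 4.29. Il3, Il5, Il3ra and Il5ra were called in no course.

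Genes that act just downstream of Csf1r were measured for 17 of 19 listed. Under LPS in BALB/c 1 was called higher and 3 lower, and the same counts held at 50 and 5 ng/ml in C57BL/6, against 17.2%, 15% and 14.3% of all genes. Src, a kinase that docks on the activated receptor, was the gene that rose, by 3.53 ± 0.32 at 4 h in BALB/c on the log2 scale. Dok2, an adaptor that restrains kinase signalling, fell by 2.97 at 8 h, and Inpp5d, the inositol phosphatase SHIP1, fell by 2.34 at 8 h. The median of the largest changes over the 17 genes was -0.32, beside -0.19 over all genes. At 0.5 ng/ml 1 was higher and 1 lower, against 9.11%. From 1 h the counts in C57BL/6 were 1 higher and 3 lower at 50 and at 5 ng/ml and 1 and 2 at 0.5 ng/ml, against 14.6%, 14.9% and 10.4%. Interferons called 1 and 0 of the 17, against 7.92% and 5.37%, a share no higher than over all genes. The 1 was Dok2 under IFN-beta, which fell by 1.13 ± 0.20 at 8 h.

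JAK-STAT genes, which carry GM-CSF, G-CSF and interferon signals, were measured for 11 of 12. Under LPS in BALB/c 8 rose, against 17.2% of all genes called, and 5 rose with IFN-beta and with IFN-gamma, against 7.92% and 5.37%. At the falling doses in C57BL/6 7, 7 and 4 rose and 1 fell at 0.5 ng/ml, against 15%, 14.3% and 9.11%. From 1 h 6, 6 and 5 rose and 0 fell there, against 14.6%, 14.9% and 10.4%. Socs3, an inhibitor of G-CSF receptor signalling, rose by 5.72 ± 0.29 at 8 h of LPS in BALB/c, 4.38 at 2 h of IFN-beta and 5.23 at 1 h of IFN-gamma on the log2 scale. Cish, a target of Stat5 that feeds back on it, rose by 5.28 ± 0.27 at 4 h of LPS in BALB/c and by 3.87, 3.72 and 2.32 at 4 h of the falling doses. Jak2 rose by 3.43 ± 0.19 at 24 h of LPS in BALB/c and 2.29 at 4 h of IFN-beta. The median of the largest changes was 1.81 under LPS in BALB/c, beside -0.19 over all genes.

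Transcription factors that control Csf1r and other myeloid genes were measured for 10 of 11. Under LPS in BALB/c 5 rose and 3 fell, against 17.2% of all genes called. With IFN-beta 1 rose and 2 fell and with IFN-gamma 2 rose and 1 fell, against 7.92% and 5.37%. In C57BL/6 3, 4 and 4 rose and 2, 3 and 1 fell at the falling doses, against 15%, 14.3% and 9.11%, and the counts from 1 h were equal to these, against 14.6%, 14.9% and 10.4%. Cebpa, a factor of granulocyte and macrophage commitment, fell by 2.97 ± 0.25 at 8 h of LPS in BALB/c on the log2 scale, by 2.69 at 8 h of 50 ng/ml and by 1.93 at 4 h of IFN-beta. Cebpd, which is induced in inflammation, rose by 2.43 ± 0.19 at 4 h of LPS in BALB/c. Tfec, a macrophage relative of Mitf, rose by 2.58 ± 0.11 at 4 h of LPS in BALB/c, 1.31 at 4 h of IFN-beta and 1.57 at 4 h of IFN-gamma. With IFN-gamma Irf8 rose by 1.81 ± 0.12 at 4 h.

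Genes that CSF1 induces as cells enter the cycle were measured for all 10 listed. Under LPS in BALB/c all 10 were called, 4 higher and 6 lower, against 17.2% of all genes. Ccnd1, the cyclin induced by CSF1, fell by 3.92 ± 0.10 at 24 h on the log2 scale. Egr1 and Egr2, immediate early genes, rose by 4.27 ± 0.22 and 3.33 ± 0.21 at 1 h. From 1 h, when Egr1 and Egr2 were already up, 1 was higher and 8 lower, against 15%. With IFN-gamma 1 rose and 3 fell, against 5.37%. With IFN-beta 2 rose and 3 fell, against 7.92%, with Ccnd2 up by 2.43 ± 0.12 at 8 h and Myc at -2.17 ± 0.16 at 4 h. At 50, 5 and 0.5 ng/ml in C57BL/6 4, 3 and 2 rose and 5 fell at each dose from 0 h, against 15%, 14.3% and 9.11%. From 1 h the counts were 1 higher and 8 lower at 50 and at 5 ng/ml and 2 and 4 at 0.5 ng/ml, against 14.6%, 14.9% and 10.4%, so that the split depended on the starting time. At 0.5 ng/ml Ccnd1 fell by 1.68 at 24 h from 0 h. CSF1 protein was in the medium of all these wells.

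The agents were then compared at matching times in BALB/c. IFN-beta against IFN-gamma gave 0 of 6 members called by limma, against 3.96% of genes. By unadjusted p under 0.05, for which no share of genes is given, 2 passed. Csf1 was higher with IFN-beta by 0.78 ± 0.16 at 4 h and 0.80 ± 0.16 at 8 h on the log2 scale, past the adjusted p (4.76e-06 for the course) and under the minimum change. Csf3r was higher with IFN-beta at 8 h by 0.64 ± 0.13. Csf1 and Csf2 were lower with both interferons than with LPS. Csf3 was called in neither comparison. At 1 h it was 0.30 ± 0.14 and 0.10 ± 0.14 higher with IFN-beta and IFN-gamma than with LPS (adjusted p 0.348 and 0.782). At 2, 4, 8 and 24 h it was lower with both, furthest at 4 h of IFN-beta (-0.37 ± 0.14, adjusted p 0.0551) and 8 h of IFN-gamma (-0.52 ± 0.14, adjusted p 0.00371). For Csf3 both comparisons passed the adjusted p of limma's F-test (0.00808 and 0.0242) and not the minimum change. IFN-beta against LPS gave 2 of 6 called, both lower (14.3% of genes in either direction, 6.19% lower), with Csf1 at -2.62 ± 0.16 at 24 h and Csf2 at -3.19 ± 0.23 at 8 h. IFN-gamma against LPS gave 3 of 6, all lower (13.6% of genes, 6.09% lower), with Csf1 at -2.97 ± 0.16, Csf2 at -3.27 ± 0.23 and Csf3r at -1.63 ± 0.13, all at 8 h. For IFN-beta against LPS at 8 h Csf3r was at -0.99 ± 0.13, lower with IFN-beta (8.75 against 9.74) and just inside the minimum change, and past it with arrays centred on their medians (-1.03), without the second replicate of IFN-beta at 8 h (-1.16) or without the first of LPS at 8 h (-1.0046). Csf1r was higher with either interferon than with LPS at 8 h, by 0.46 and 0.49 ± 0.07.

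Doses of LPS were compared within C57BL/6, with no use of the 0 h arrays. Of the 6 members 1 was called for 50 against 0.5 ng/ml, Csf2, against 3.72% of genes (2.01% higher), with a difference of 1.72 ± 0.23 at 2 h on the log2 scale (fold 3.3, adjusted p at that time 4.99e-06). For 5 against 0.5 ng/ml 2 were called, against 2.16% of genes (1.16% higher): Csf2, 1.17 ± 0.23 higher at 2 h, and Csf3, 1.11 ± 0.14 higher at 8 h. Csf3 then crossed over: at 24 h it was 0.67 lower at 5 than at 0.5 ng/ml (-0.67 ± 0.14, adjusted p 0.0049), and the arrays, 5.82 and 5.80 against 6.61 and 6.36, did not overlap. These 2 calls rest on single arrays. The call of Csf2 was lost without the first replicate at 5 ng/ml (0.91) or the second at 0.5 ng/ml (0.97) at 2 h, and that of Csf3 without the first replicate at 5 ng/ml at 8 h (0.90).

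For 50 against 5 ng/ml 0 of 6 were called in limma's F-test, against 0.228% of genes, and 1 was without the second replicate of 5 ng/ml at 8 h, Csf2. By unadjusted p under 0.05, for which no share of genes is given, 3 of 6 passed, and none by adjusted p. Csf2 was 0.75 ± 0.23 lower at 4 h and 0.74 lower at 8 h at the higher dose, with adjusted p values of 0.2 and 0.161, and intervals of -1.22 to -0.28 and -1.21 to -0.27. Csf1 at 8 h was at -0.35 with an interval of -0.67 to -0.02. Csf1r at 8 h was lower the higher the dose, at 11.95 in both arrays of 50 ng/ml, 12.08 and 12.09 at 5 ng/ml and 12.35 and 12.31 at 0.5 ng/ml, with -0.38 ± 0.07 for the highest against the lowest dose (adjusted p 3.38e-05). Csf3r was 0.82 and 0.81 higher at 50 and at 5 than at 0.5 ng/ml at 8 h, with an SE of 0.13.

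**Figure D4:**
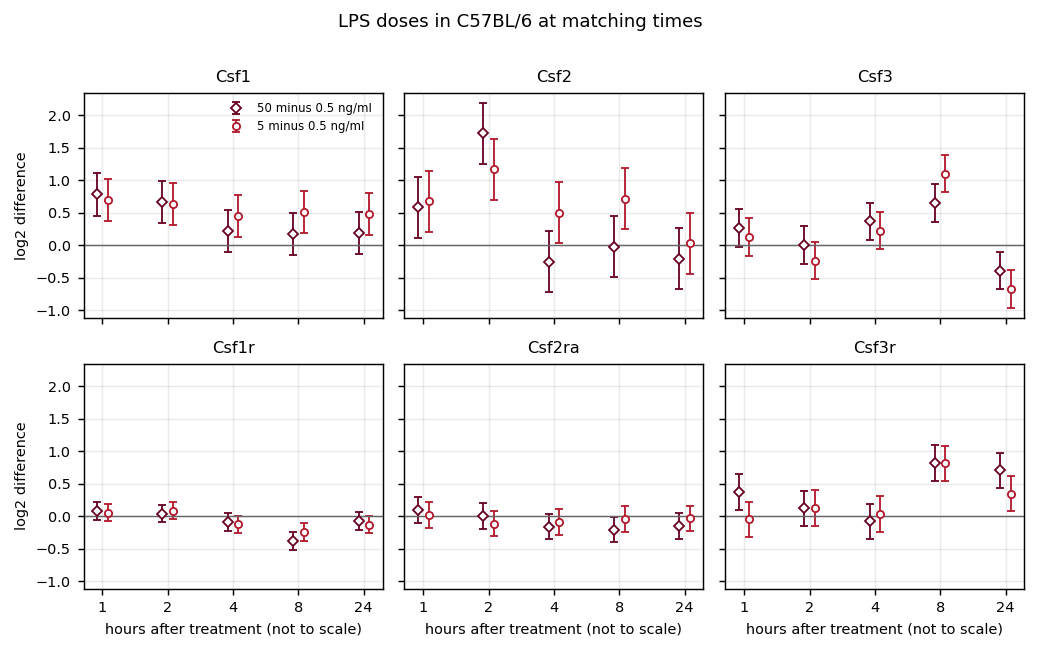
Log2 differences of 50 and of 5 against 0.5 ng/ml LPS in C57BL/6 at matching times (evenly spaced, not to scale) for each of the 6 genes, with 95% intervals of the fit. Csf2 differs most at 2 h, by 1.72 and 1.17, Csf3 is above 0 at 8 h and below 0 at 24 h, and Csf2ra stays near 0.

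Strains were compared at LPS 5 ng/ml. In level at matching times 2 of 6 members were called, both higher in BALB/c, against 5.53% of genes (3.52% higher). At 1 h Csf1 was 2.00 ± 0.16 higher on the log2 scale, with 10.14 and 10.09 against 8.42 and 7.80, and Csf2 2.30 ± 0.23 higher, with 7.65 and 7.19 against 5.43 and 4.80. Csf1 was still 1.15 ± 0.16 higher at 2 h (adjusted p 1.17e-06 by limma). At 4 h and 8 h it differed by 0.10 and 0.07 only, with intervals of -0.22 to 0.43 and -0.26 to 0.39. At 24 h it was 0.64 ± 0.16 higher (adjusted p 0.00612). Csf2 differed by 0.41 ± 0.23 at 2 h (adjusted p 0.289) and 1.03 ± 0.23 at 4 h (adjusted p 0.0012). Its difference was 2.05 ± 0.23 at 8 h and 0.46 ± 0.23 at 24 h (adjusted p 0.243 at 24 h). Csf3 was the reverse, -0.88 ± 0.14 at 8 h and -0.99 ± 0.14 at 24 h, just inside the minimum change. It passed the minimum in the larger batch alone (-1.08), which leaves 1 BALB/c array at 24 h. It also did so without the second replicate of either strain at 24 h (-1.08 and -1.0007). Csf1r was lower in BALB/c at all 5 times, with differences of -0.23 to -0.51, and the adjusted p was under 0.05 at each.

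Untreated, 0 of 6 members were called between strains by limma, against 2.36% of genes. By unadjusted p under 0.05, for which no share of genes is given, 2 passed. Csf1 differed by -0.99 ± 0.16 (adjusted p 1.39e-05), 7.57 and 7.38 in BALB/c and 8.46 and 8.48 in C57BL/6. Quantile normalisation took that difference to -1.06, and leaving out the first BALB/c or the first C57BL/6 array to -1.09 or -1.0038, so that it passed the minimum. Csf1r was at -0.19 ± 0.07 (adjusted p 0.0661). Csf2, Csf3 and Csf3r differed by -0.05, -0.02 and 0.26.

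The change from 0 h differed between strains for 2 of 6 members, against 4.68% of genes (3.27% higher in BALB/c). At 1 h the difference of changes was 3.00 ± 0.23 for Csf1 and 2.36 ± 0.33 for Csf2 on the log2 scale, both larger in BALB/c. Measured from 1 h the sign turned: 2 of 6 were called, both lower in BALB/c, against 3.77% of genes (2.16% lower), with Csf1 at -1.94 ± 0.23 at 8 h and Csf2 at -1.90 ± 0.33 at 2 h. BALB/c was already high at 1 h, and C57BL/6 rose after it. For Csf1 and Csf2 the sign of the strain response thus depended on the starting time. Csf3 was at -0.97 ± 0.20 at 24 h from 0 h and -0.85 ± 0.20 from 1 h. The LPS-type level of Nos2 in the C57BL/6 0 h arrays bears on every difference that uses them, and its part was not tested.

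**Figure D5:**
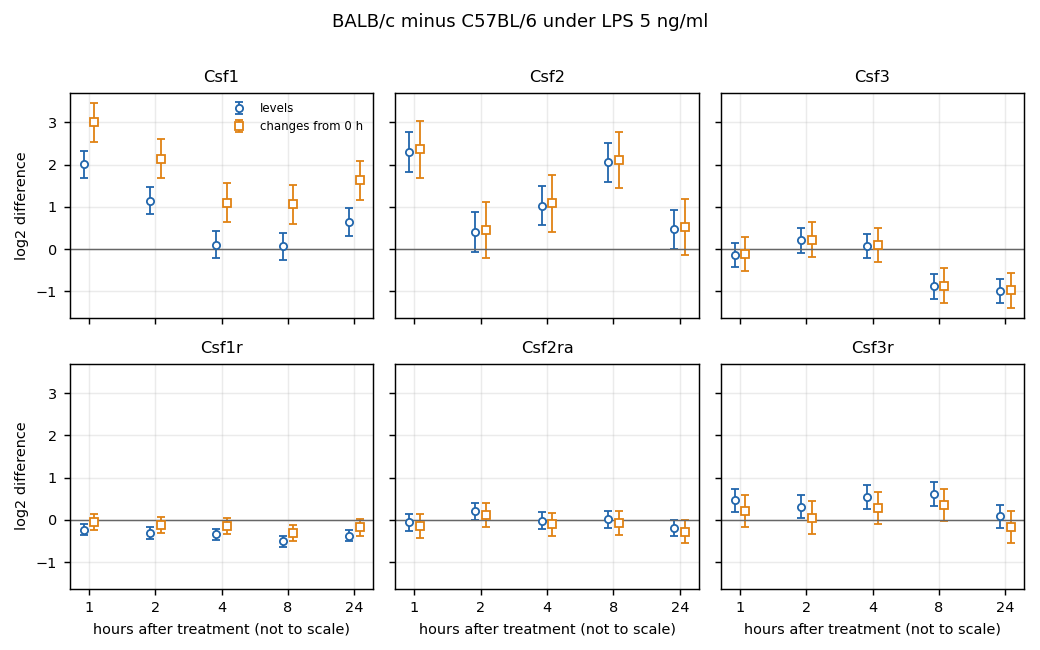
BALB/c minus C57BL/6 at LPS 5 ng/ml, in log2, for levels (circles) and for changes from 0 h (squares), against hours after treatment (evenly spaced, not to scale), with 95% intervals of the fit. Csf1 levels differ by 2.00 at 1 h and 0.07 at 8 h, Csf2 by 2.30 and 2.05, Csf3 falls below 0 at 8 h and 24 h, and the Csf2ra intervals in level lie between -0.39 and 0.40.

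The order of the 32 group means shows which conditions parted each gene. For Csf1 the 10 highest groups were all LPS groups at 2, 4, 8 or 24 h, led by 8 h of 5 ng/ml in BALB/c (11.28) and in C57BL/6 (11.21), whose arrays overlap, and the lowest was 1 h of 0.5 ng/ml in C57BL/6 (7.42). Of its 31 neighbouring pairs in that order 21 overlapped. For Csf2 the top group, 8 h of LPS in BALB/c (7.62), overlapped the next, 1 h of LPS in BALB/c (7.42), and 27 of 31 neighbours overlapped, so that most of the order lies within the spread of arrays. For Csf3 the top group, 24 h of 0.5 ng/ml (6.48), stood clear of the next, 24 h of 50 ng/ml (6.09), and the 5 highest groups were all C57BL/6 at 8 h or 24 h. For Csf1r the 3 highest were the 24 h LPS groups of C57BL/6 (12.59, 12.52 and 12.46), each clear of the next, and for Csf2ra 28 of 31 neighbours overlapped. For Csf3r the top group, 8 h of LPS in BALB/c (9.74), stood clear of 24 h of 50 ng/ml in C57BL/6 (9.47), which stood clear of 24 h of LPS in BALB/c (9.20).

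Genes with the most similar profile over the 32 group means were named for each member, from genes whose means span at least 1 log2, as a description over groups that share agents and times. For Csf1 these were Nod2, an intracellular sensor of bacterial peptidoglycan (Pearson r 0.94), Vps37c (0.93) and Pip5k1a (0.93). For Csf2 they were Clcf1, a cytokine of the interleukin 6 family (0.86), the phosphatase gene Dusp2 (0.82) and the chemokine gene Cxcl1 (0.82). Csf3 was most like Procr, the endothelial protein C receptor (0.88), Slpi, a secreted protease inhibitor (0.88), and H2-Eb2 (0.88). Csf1r was most like Ccdc180 (0.87), Tgfbi (0.86) and Idua (0.86), and Csf2ra like Dapk1 (0.76), Gclc (0.73) and Dmxl2 (0.71). Csf3r was most like Ambra1 (0.95), Ms4a6c (0.94) and Grina (0.93). By Spearman's rank correlation 0 of the 3 named for Csf3 remained, 1 of 3 for Csf1, Csf1r and Csf3r, and 2 of 3 for Csf2 and Csf2ra. Over the 64 arrays 1 of 3 remained for Csf3r and 2 or 3 for each of the others. Among the members themselves the highest values were 0.64 for Csf3 with Csf3r and 0.62 for Csf1 with Csf2.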

How the data were processed

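Affymetrix arrays measured RNA from 64 wells of mouse macrophages, 1 array a well. The deposited values are linear intensity per probe set, and the submitters' processing notes name Affymetrix Expression Console 1.1. The normalisation within it and the genome build are not given in the sources used here. The log2 of the deposited intensity was taken with no further normalisation.

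Of 35556 probe sets 21218 had 1 gene symbol, 1881 several and 12457 none in the gene table, and 18820 genes remained with the brightest probe set of each. Groups followed the labels. Means of 32 groups were fitted over all 64 arrays with limma 3.58.1 in R 4.3.3 (32 residual degrees of freedom), with Benjamini-Hochberg adjustment over all genes. The fit was tested on simulated data.

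The members, gene lists and tests were chosen with earlier results of these data known. The text names the 6 members in every comparison, at most the 3 called genes with the largest change per pathway list and course, and the 3 genes most alike per member. Nos2, the marker genes named and the uncalled genes of the list of shared chains lie outside that rule and were chosen after their values were seen. Promoters came from RefSeq (GRCm38.p6). Array number limits precision. Alternatives covered normalisation, dim genes, probe sets, batch, replicate block, starting time, minimum change and each array left out.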

Additional observations from a re-analysis of the deposited data

Results flagged for a closer look

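The response to LPS at 5 ng/ml from 0 h differed between BALB/c and C57BL/6 for 3 members by the adjusted p of limma's F-test of the difference of changes over the course, and 2 of them, Csf1 and Csf2, also passed the minimum change. It was larger in BALB/c at 1 h for Csf1, by 3.00 ± 0.23 (SE) on the log2 scale (adjusted p of the course 2.22e-11), and for Csf2, by 2.36 ± 0.33 (adjusted p of the course 8.18e-07). For Csf3 it was smaller in BALB/c at 24 h, with -0.97 ± 0.20 (adjusted p of the course 1.12e-05), just under the minimum change. The Csf3 difference passed the minimum with quantile normalisation (-1.02) and in the larger batch alone (-1.06), which leaves 1 BALB/c array at 24 h. It also did so without the second replicate of BALB/c at 0 h (-1.0081) or at 24 h of LPS (-1.06), or of C57BL/6 at 0 h (-1.09). The Nos2 level of 10.54 in untreated C57BL/6, against 3.66 in untreated BALB/c, accompanies all 3, and its part was not tested.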

How the results depend on the processing

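No called member changed direction under any alternative that keeps the 0 h start. Measured from 1 h, the strain difference of Csf1 and Csf2 turned sign (-1.94 at 8 h and -1.90 at 2 h on the log2 scale). Csf2 with LPS in BALB/c, called higher from 0 h, was called lower from 1 h, with -2.12 at 24 h. With no minimum change, the members called were 4 with IFN-beta, 2 with IFN-gamma, 5 with LPS in BALB/c and 5 at each dose in C57BL/6. They were 2 for IFN-beta against IFN-gamma, 5 for each interferon against LPS and 5 for 50 and for 5 against 0.5 ng/ml. Strain levels had 5, the strain response 3 and strains at 0 h 1. The shares of all genes given above are for calls with the minimum change. None is given without it, so these counts are not set against the whole array. Quantile normalisation gave 1 for strains at 0 h and took Csf3 past the minimum change in the strain response (-1.02). Changes from 1 h gave 0 for IFN-gamma, and in C57BL/6 3 for 5 ng/ml and 4 for 0.5 ng/ml. Leaving out 1 array gave 0 to 1 for strains at 0 h, 1 to 2 for IFN-beta, 1 to 3 for 5 against 0.5 ng/ml and 0 to 1 for 50 against 5 ng/ml. It gave 3 to 4 for 5 ng/ml in C57BL/6, and 2 to 3 for IFN-beta against LPS, for strain levels and for the strain response. The upper end for 5 against 0.5 ng/ml came without the second replicate of 5 ng/ml at 1 h, with Csf1 at 1.01. The replicate block changed no call of a member (Csf1 with IFN-beta 2.39, adjusted p 1.03e-14 with the replicate block). Replicate numbers did not pair the samples, since only 46 of 496 pairs of groups had deviations that correlated above 0.1 (median 0.00456).

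Over all genes, 50 against 5 ng/ml called 43 genes, 13 with only the arrays compared, 72 in the larger batch, 122 without the arrays that stood apart and 29 to 147 with 1 array left out, and IFN-beta called 1490, or 977 in the larger batch, where its 4 h group is missing. Csf2 and Csf3 lie near background in most groups, which limits their order there.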
